A study of Mus musculus with 15 samples.

Results

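A set of 8 genes that place leukocytes inside lymphoid organs was followed through 5 sorted mononuclear phagocyte (MP) subtypes of the mouse. They were chosen by name, as the oxysterol receptor Gpr183 (also called EBI2), the enzymes that make or clear its ligand (Ch25h, Cyp7b1, Cyp27a1 and Hsd3b7) and the sphingosine phosphate (S1P) receptors S1pr1, S1pr3 and S1pr4. They are 8 of the 38924 genes counted, each matched to 1 Ensembl identifier, and all 8 passed the filter on low counts, Ch25h and S1pr3 through LN libraries. Gpr183 was highest in LN CD11b+ dendritic cells (DCs), Ch25h was read in LN DCs alone, Cyp7b1 was highest in splenic CD8+ DCs, S1pr1 was 30.4 and 13.3 times higher in the LN DCs than in their splenic counterparts, and S1pr4 had its highest mean in monocytes.

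Gpr183 is a G protein-coupled receptor that draws B cells, T cells and DCs toward dihydroxylated cholesterol. Ch25h adds the first hydroxyl group to cholesterol and Cyp7b1 the second, which gives the ligand, and Hsd3b7 oxidizes the ligand to a form that no longer attracts cells. Cyp27a1, a mitochondrial sterol hydroxylase, makes a related oxysterol that can enter the same route. The gradient of ligand is set mainly by stromal cells, and Gpr183 is known to hold splenic CD4+ DCs in the bridging channels of the spleen. S1P is kept high in blood and lymph and low in tissue, and S1pr1 is the receptor by which lymphocytes leave lymphoid organs along that step. S1pr3 is best known from endothelium and S1pr4 from haematopoietic cells.

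RNA was sequenced from splenic CD8+ DCs (DC1 lineage), splenic CD4+ DCs (DC2 lineage), splenic Ly6C+ monocytes, LN CD103+ DCs (DC1) and LN CD11b+ DCs (DC2), with 3 libraries per subtype and 15 in all. All came from naïve C57BL/6 mice, which carried no transgene or treatment, and each library pooled cells from 5 female mice of 6 to 8 weeks. Cells were freed by collagenase, enriched on magnetic beads and sorted by flow cytometry, and the LN DCs were those with high MHC class II from the nodes that drain the lung, the gate for DCs that have migrated there. The nodes and the spleens were taken from separate cohorts, so that organ, cohort and gate cannot be told apart. DCs were enriched with CD11c beads and splenic monocytes with CD11b beads, and monocyte libraries alone were sums of 2 runs. Between monocytes and splenic DCs, subtype, beads and runs therefore coincide. In sorted pools, fewer cells with a transcript and less of it per cell cannot be told apart either. The libraries held 4531243 to 10233914 counts on genes. Levels are given as CPM, the counts of a gene scaled to a common library size with TMM factors. The 7 DC1 markers summed to at least 3604 CPM in splenic CD8+ DCs and to at most 168 in splenic CD4+ DCs, and to 799.8 to 1136 CPM in LN CD103+ DCs against 293 to 447 in LN CD11b+ DCs. The 7 DC2 markers summed to 1782 to 2860 CPM in splenic CD4+ DCs and to 241 to 382 in splenic CD8+ DCs, but to as much in monocytes (2534 to 2855). The 7 migratory DC markers summed to at least 9318 CPM in LN DCs and at most 1931 in spleen.

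The 8 genes lie on 7 chromosomes of the mm10 genome: Gpr183 at chr14:121952331-121965193 (minus strand), Ch25h at chr19:34473786-34475135 (minus), Cyp7b1 at chr3:18071950-18243338 (minus), Cyp27a1 at chr1:74713574-74737890 (plus), Hsd3b7 at chr7:127785608-127803802 (plus), S1pr1 at chr3:115710433-115715055 (minus), S1pr3 at chr13:51408618-51422797 (plus) and S1pr4 at chr10:81497745-81500132 (minus). Promoters were at hand in RefSeq (GRCm38.p6) for 6 of them and not for Cyp7b1 and S1pr1. The 250 bases before the start are printed for the receptor, for the enzyme whose RNA was found in one organ alone, and for the gene whose counted model reaches far upstream of its own start. Capitals mark matches to the motifs searched.
Gpr183, chr14:121965194-121965443, minus strand: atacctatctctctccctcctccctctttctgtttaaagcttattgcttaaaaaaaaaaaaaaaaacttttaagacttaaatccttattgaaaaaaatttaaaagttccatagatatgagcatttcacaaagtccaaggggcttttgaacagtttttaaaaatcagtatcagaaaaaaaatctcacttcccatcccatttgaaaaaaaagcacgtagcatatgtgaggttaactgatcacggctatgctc
Ch25h, chr19:34475149-34475398, minus strand: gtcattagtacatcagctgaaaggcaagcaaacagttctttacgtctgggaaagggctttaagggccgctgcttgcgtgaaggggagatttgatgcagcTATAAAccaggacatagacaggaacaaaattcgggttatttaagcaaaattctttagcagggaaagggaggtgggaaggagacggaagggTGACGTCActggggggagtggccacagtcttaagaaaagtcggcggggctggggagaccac
Hsd3b7, chr7:127800359-127800608, plus strand: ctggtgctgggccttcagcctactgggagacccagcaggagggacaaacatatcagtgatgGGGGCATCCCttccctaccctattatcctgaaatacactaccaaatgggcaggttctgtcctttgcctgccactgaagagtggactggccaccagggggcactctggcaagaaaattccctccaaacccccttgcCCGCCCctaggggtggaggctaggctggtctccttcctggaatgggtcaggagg
Both strands were searched for TATAAA (the TATA box), GGGCGG (the GC box), TGANTCA (AP-1), TGACGTCA (the cAMP response element), GAGGAAGT (PU.1), CCACACCC (KLF), an NF-kB motif and an interferon-stimulated response element. Of the 32851 mouse promoter windows of this length, 12.4%, 32.7%, 6.75%, 1.55%, 2.44%, 3.20%, 7.25% and 5.09% held them, in that order. The Ch25h window held TATAAA 151 bases and TGACGTCA 61 bases before the start. The Gpr183 window held none and had a GC content of 32.0%, below the interquartile range of all windows (45.2% to 61.2%). The Hsd3b7 window held 1 GC box on the opposite strand (54 bases before the start) and 1 NF-kB site that reads on both strands (189 bases before). Of the other windows, those of Cyp27a1 and S1pr3 held 1 GC box each and that of S1pr4 none. These are matches of letters and were not tested for binding.

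Gpr183 RNA was most abundant in LN CD11b+ DCs, intermediate in splenic CD4+ DCs and LN CD103+ DCs, and lowest in splenic CD8+ DCs and monocytes. In LN CD11b+ DCs the 3 libraries gave 234, 232 and 239.6 CPM. Splenic CD4+ DCs gave 124, 120.2 and 112 CPM, and LN CD103+ DCs gave 99.8, 118 and 100.1 CPM. These ranges overlap, while every LN CD11b+ library lies above them. Splenic CD8+ DCs gave 67.5, 30.2 and 22.1 CPM and monocytes 37.4, 40.5 and 35.9 CPM, so the first CD8+ library stands apart from the other two of its group. The means were 235 ± 3.92, 119 ± 5.95, 106 ± 10.4, 40.0 ± 24.2 and 37.9 ± 2.36 CPM (SD, n = 3), in the order of level. Of the neighbours in this order, the first pair, LN CD11b+ and splenic CD4+ DCs, differed (log2 fold change 0.99 ± 0.27 SE, adjusted p = 0.00888 in edgeR's quasi-likelihood test with Benjamini-Hochberg adjustment) and so did the third, LN CD103+ and splenic CD8+ DCs (1.41 ± 0.28, adjusted p = 0.000417). Splenic CD4+ and LN CD103+ DCs were not told apart (adjusted p = 0.65), nor were splenic CD8+ DCs and monocytes (adjusted p = 0.864).

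Within each organ Gpr183 was thus higher in the DC2 subtype. It was 2.97 times higher in splenic CD4+ than in CD8+ DCs (log2 fold change of CD8+ minus CD4+ -1.57, 95% interval -2.16 to -0.98, adjusted p = 0.000376) and 2.22 times higher in LN CD11b+ than in LN CD103+ DCs (log2 fold change of CD103+ minus CD11b+ -1.15, -1.72 to -0.58, adjusted p = 0.00781). The LN minus spleen difference was not shown to differ between the lineages (0.42, -0.39 to 1.23, adjusted p = 0.546 for DC1 minus DC2). Without the first splenic CD8+ library, CD8+ minus CD4+ was -2.18 and LN CD103+ minus splenic CD8+ DCs 2.02, and the difference between the lineages was 1.03 (adjusted p = 0.0161, with adjusted p between 0.0161 and 0.885 over all 25 alternatives), and monocytes minus splenic CD8+ DCs went from -0.07 to 0.54 (adjusted p = 0.0417, between 0.0417 and 0.998 over the alternatives). Gpr183 lies on the minus strand in an intron of Ubac2, which is on the plus strand, and the counting did not use strand. Ubac2 was at 81.1 CPM in monocytes, 71.4 in splenic CD4+ DCs, 43.9 in LN CD11b+ DCs, 43.5 in splenic CD8+ DCs and 37.3 in LN CD103+ DCs. Its means were higher in the DC2 subtype of each organ, as were those of Gpr183, and its libraries overlapped in these comparisons. In monocytes, and between organs in both lineages, its means did not follow the order of Gpr183. The part of Ubac2 reads in the level of Gpr183 was not tested.

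**Figure D1:**
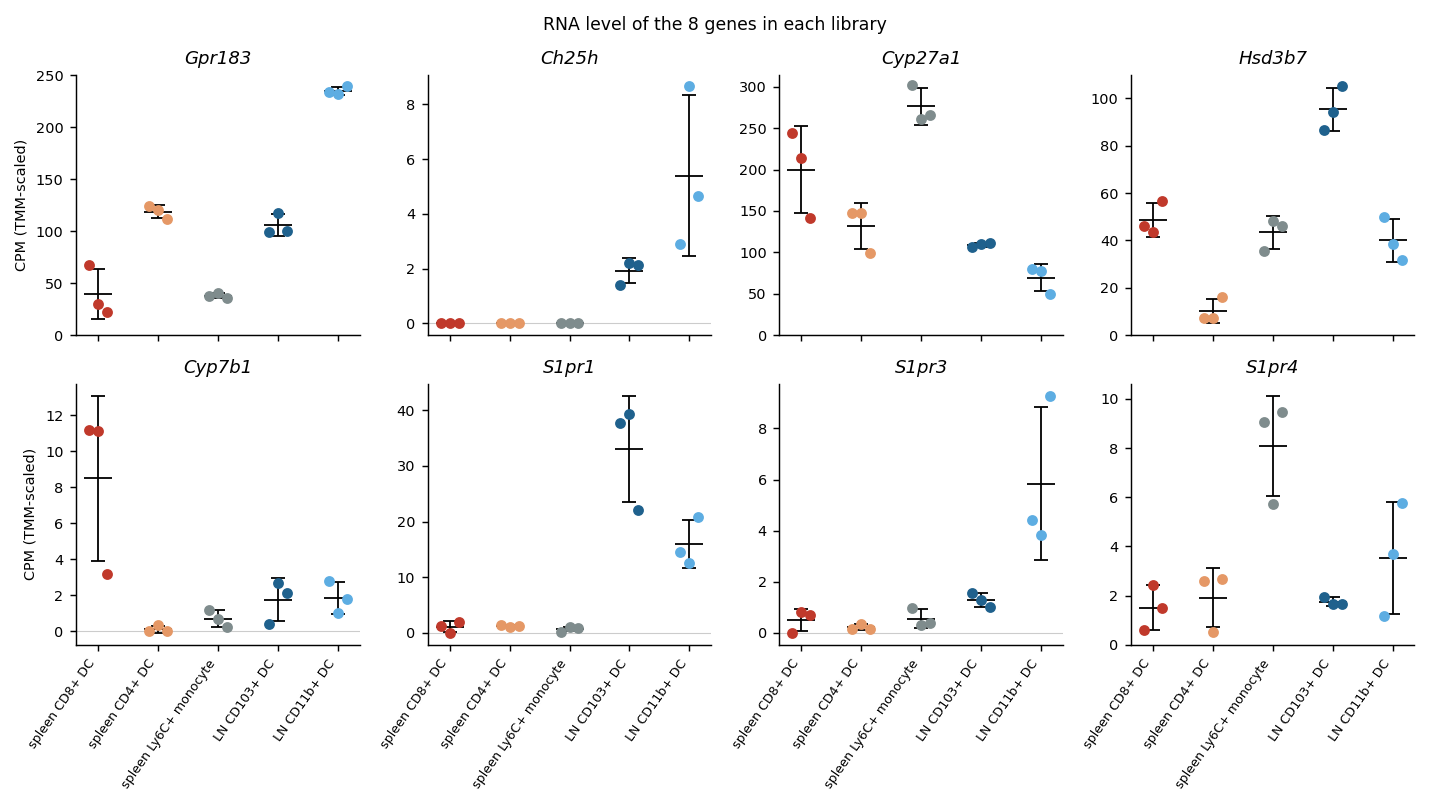
RNA level of the 8 genes in the 15 libraries, in TMM-scaled CPM on linear axes that differ between panels, with points for libraries in the order of replicate number and bars for the mean ± SD (n = 3). Gpr183 sits at 232 to 239.6 CPM in LN CD11b+ DCs, Ch25h and S1pr1 rise above the spleen in both LN subtypes, and Cyp7b1 is highest in splenic CD8+ DCs.

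Ch25h, the hydroxylase that starts ligand synthesis, was read in LN DCs and in no splenic library. LN CD103+ DCs held 10, 19 and 13 counts (1.40, 2.22 and 2.15 CPM) and LN CD11b+ DCs 27, 59 and 21 counts (2.90, 8.65 and 4.64 CPM). All 9 splenic libraries held 0 counts, which by a floor of 3 counts allows up to 0.293 to 0.615 CPM per library, for counting error only. Against a floor of 3 counts over the splenic group, Ch25h was at least 15.8-fold higher in LN CD103+ than in splenic CD8+ DCs (adjusted p = 0.00047) and at least 33.9-fold higher in LN CD11b+ than in splenic CD4+ DCs (adjusted p = 0.000153). It passed the filter through the LN libraries alone, so a difference from spleen was fixed by the filter. Between the LN subtypes the libraries did not overlap and the means were 1.92 ± 0.459 and 5.40 ± 2.95 CPM, but the difference missed the threshold (log2 fold change of CD103+ minus CD11b+ -1.48, -2.87 to -0.08, adjusted p = 0.17). Exons of Ch25h share 159 bases (11.8%) with Gm26902 on the opposite strand. Gm26902 had 0 to 9 counts per LN library, and after they were taken away 4 to 53 Ch25h counts were left.

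Cyp7b1, which completes the ligand, had a different pattern. Splenic CD8+ DCs gave 11.2, 11.1 and 3.21 CPM (94, 82 and 28 counts), and splenic CD4+ DCs had 0, 2 and 0 counts. Each CD8+ library lies above each CD4+ library, at a ratio of pooled counts per library size of 81.7 (counting interval 22.3 to 679, 95%) and a fitted log2 fold change of 6.14 ± 0.99 (adjusted p = 0.000151). LN CD103+ DCs (0.419, 2.69 and 2.15 CPM) and LN CD11b+ DCs (2.80, 1.03 and 1.77 CPM) overlapped, and monocytes gave 1.18, 0.680 and 0.263 CPM. Cyp7b1 was thus 4.84 times lower in LN CD103+ than in splenic CD8+ DCs (log2 fold change -2.26, -3.71 to -0.80, adjusted p = 0.0124) and higher in LN CD11b+ than in splenic CD4+ DCs, by a pooled-count ratio of 19.5 on 2 splenic counts (counting interval 5.06 to 166, adjusted p = 0.00701). The first of these calls was lost without the first splenic CD8+ library (-2.00, adjusted p = 0.0509) or the first LN CD103+ library (-1.79, adjusted p = 0.051), with adjusted p between 0.00093 and 0.051 over the alternatives. The organ difference of Cyp7b1 itself differed between DC1 and DC2 (log2 difference -6.24 ± 1.26, adjusted p = 0.00316), the one gene of the 8 (12.5%) for which it did, near the 11.2% of all genes tested. It could not be estimated for Ch25h, which had no splenic counts. In level, splenic CD8+ DCs stood above the next subtype, LN CD11b+ DCs (adjusted p = 0.0188), and none of the lower neighbours was told apart (adjusted p = 0.0863 to 0.954).

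Cyp27a1 was the most abundant of the 4 enzymes in every subtype and was higher in spleen than in the LN. Per kilobase of exon, where genes can be compared, it reached 378 ± 42.4 TPM (length-scaled transcript abundance) in monocytes. Splenic CD8+ DCs followed with 255 ± 71.2 TPM and their CD4+ counterparts with 171 ± 28.2 TPM, and LN CD103+ DCs had 130.1 ± 4.99 and LN CD11b+ DCs 87.5 ± 17.8 TPM, where Ch25h reached 9.42 ± 4.57 TPM at most. In CPM, monocytes gave 302, 261 and 266, splenic CD8+ DCs 244, 214 and 142, and splenic CD4+ DCs 147, 148 and 99.5. LN CD103+ DCs gave 106, 109.7 and 111 CPM and LN CD11b+ DCs 80.1, 77.9 and 50.4 CPM. Every neighbour in this order missed the threshold (adjusted p = 0.0523 to 0.339), although the libraries of monocytes and splenic CD8+ DCs, and of the LN subtypes, did not overlap. The levels further apart in the order did differ: Cyp27a1 was 1.84 times lower in LN CD103+ than in splenic CD8+ DCs (log2 fold change -0.88, -1.35 to -0.41, adjusted p = 0.00362), 1.89 times lower in LN CD11b+ than in splenic CD4+ DCs (-0.92, -1.39 to -0.44, adjusted p = 0.00417) and 2.10 times higher in monocytes than in splenic CD4+ DCs (adjusted p = 0.00077). The organ difference was nearly equal in the lineages (difference 0.04, -0.63 to 0.70, adjusted p = 0.972).

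Hsd3b7, the dehydrogenase that clears the ligand, was highest in LN CD103+ DCs (86.7, 94.2 and 105 CPM) and lowest in splenic CD4+ DCs (7.48, 7.16 and 16.3 CPM). Splenic CD8+ DCs (45.9, 43.4 and 56.7 CPM), monocytes (35.6, 48.4 and 46.2 CPM) and LN CD11b+ DCs (49.9, 38.6 and 31.8 CPM) lay between and overlapped. The highest and the lowest subtype differed from their neighbours (adjusted p = 0.00507 and 2.69e-05), and those between them did not (adjusted p = 0.654 and 0.752). Hsd3b7 was higher in DC1 than in DC2 in the spleen (4.72 times, log2 fold change 2.24 ± 0.28, adjusted p = 1.01e-05) and in the LN (2.38 times, 1.24 ± 0.26, adjusted p = 0.00333), the reverse of the order of Gpr183. The model on which Hsd3b7 was counted begins 15001 bases before the RefSeq start and shares 3523 of its 6154 exon bases (57.2%) with Setd1a on the same strand, and reads there were counted for both genes. Setd1a had 63 to 79 counts per splenic CD4+ library, where Hsd3b7 had 58, 42 and 98, so that as few as 0, 0 and 35 reads may be Hsd3b7's own. In LN CD103+ DCs at least 519 to 729 reads were its own. With all Setd1a counts taken away, the differences of splenic CD8+ and of LN CD11b+ from splenic CD4+ DCs stayed past the threshold and grew, to log2 fold changes of 4.44 and 4.16 (from 2.24 and 1.97). The calls for LN CD103+ minus splenic CD8+ DCs (from 0.97 to 1.05, adjusted p = 0.118) and LN CD103+ minus LN CD11b+ DCs (from 1.24 to 1.33, adjusted p = 0.119) were lost, each being the highest adjusted p of 25 alternatives, with lowest values of 0.000557 and 2.89e-05. The counts left came to 83.7 ± 10.6 CPM in LN CD103+, 40.4 ± 8.87 in splenic CD8+ and 33.1 ± 9.17 in LN CD11b+ DCs. All subtypes share 1 estimate of the spread, including splenic CD4+ DCs with 0, 0 and 35 counts left. Why the calls were lost was not tested.

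S1pr1, the egress receptor, was an LN transcript in these cells. LN CD103+ DCs gave 37.8, 39.3 and 22 CPM and LN CD11b+ DCs 14.6, 12.5 and 20.8 CPM. Splenic CD8+ DCs gave 1.31, 0 and 1.95 CPM, splenic CD4+ DCs 1.42, 1.02 and 1.17 CPM, and monocytes 0.197, 1.07 and 0.789 CPM. Every LN library lies above every splenic library, by 30.4 times in DC1 (33.1 ± 9.58 against 1.09 ± 0.993 CPM, log2 fold change 4.87 ± 0.57, adjusted p = 1.22e-06) and by 13.3 times in DC2 (16 ± 4.31 against 1.20 ± 0.200 CPM, 3.69 ± 0.57, adjusted p = 5.5e-05). The 2.07-fold difference between the LN subtypes missed the threshold although the libraries did not overlap (log2 fold change 1.06, 0.11 to 2.01, adjusted p = 0.145). The splenic subtypes were not told apart (adjusted p = 0.45 to 0.925).

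S1pr3 was a rare transcript, highest in LN CD11b+ DCs at 4.41, 3.81 and 9.28 CPM (41, 26 and 42 counts). LN CD103+ DCs gave 1.54, 1.29 and 0.994 CPM, and no splenic library exceeded 0.983 CPM, or 6 counts. It passed the filter through LN libraries, of which 5 held over 1 CPM against 1 splenic library, so a difference from spleen was fixed by the filter as for Ch25h. In DC2 its mean was 27.5 times higher in LN than in spleen, where 4 counts were read in all (adjusted p = 0.000377). In DC1 the 2.55-fold difference missed the threshold (1.34, -0.30 to 2.98, adjusted p = 0.175), and the organ difference was not shown to differ between the lineages (-3.36, -5.88 to -0.83, adjusted p = 0.0826). The difference between the LN subtypes (LN CD103+ minus LN CD11b+ -2.16, -3.63 to -0.69) just passed the threshold (adjusted p = 0.0493) and failed it in 13 of 25 alternatives, 3 of which left out a monocyte library (adjusted p between 0.00371 and 0.194).

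S1pr4 was highest in monocytes, at 9.05, 5.73 and 9.47 CPM. Splenic CD8+ DCs gave 0.598, 2.43 and 1.49 CPM, splenic CD4+ DCs 2.58, 0.511 and 2.66 CPM, LN CD103+ DCs 1.95, 1.64 and 1.66 CPM, and LN CD11b+ DCs 1.18, 3.67 and 5.75 CPM. Monocyte libraries lay above all splenic DC libraries and overlapped those of LN CD11b+ DCs by the narrow margin of 5.73 against 5.75 CPM. S1pr4 was 4.22 times higher in monocytes than in splenic CD4+ DCs (log2 fold change 2.04 ± 0.61, adjusted p = 0.0102) and 5.37 times higher than in splenic CD8+ DCs (2.42 ± 0.62, adjusted p = 0.00381). No neighbour in its order of level passed the threshold (adjusted p = 0.0921 to 0.874), and no organ difference did (0.23, -1.12 to 1.58 in DC1 and 0.81, -0.50 to 2.12 in DC2).

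**Figure D2:**
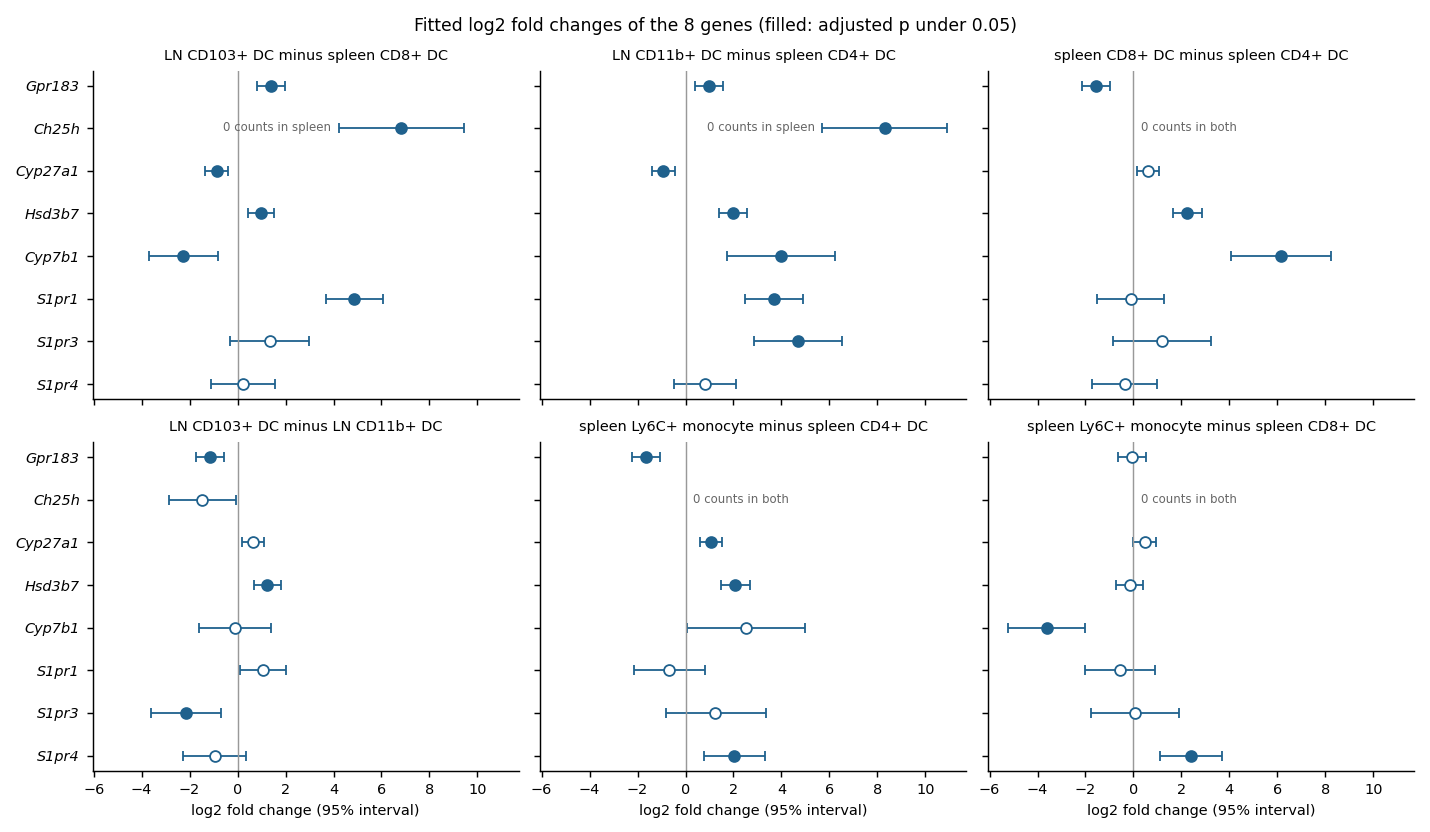
Fitted log2 fold changes of the 8 genes with 95% intervals in 6 comparisons of 2 subtypes, filled where the adjusted p is under 0.05, with comparisons in which a subtype has 0 counts of Ch25h written beside the point. LN minus spleen is positive for S1pr1 (4.87 and 3.69) and negative for Cyp27a1 (-0.88 and -0.92) in both lineages, and Cyp7b1 lies on opposite sides of 0 (-2.26 and 3.99).

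Set beside the other S1P receptors on the TPM scale, the 3 receptors above made up the smaller share, with LN CD103+ DCs close to equal. S1pr2, which restrains migration, took 84.6% ± 3.92 of the summed TPM of the 5 receptors in the CD8+ and 57.2% ± 6.67 in the CD4+ DCs of the spleen, and 64.6% ± 14.8 in LN CD11b+ DCs. In LN CD103+ DCs S1pr1 took 45.5% ± 11.2 and S1pr2 50.2% ± 11.5, which overlap. In monocytes S1pr5, the receptor of patrolling monocytes and natural killer cells, took 57.1% ± 2.97, S1pr2 36.9% ± 2.80 and S1pr4 5.49% ± 1.48. The summed TPM was 159.7 ± 1.76 in monocytes, 53.7 ± 4.57 and 55.8 ± 6.96 in LN CD103+ and LN CD11b+ DCs, and 18.4 ± 2.38 and 11.3 ± 1.91 in splenic CD8+ and CD4+ DCs. S1pr2 itself was higher in LN than in spleen in both lineages, by 1.84 times in DC1 (log2 fold change 0.88 ± 0.28, adjusted p = 0.0155) and 5.68 times in DC2 (2.51 ± 0.30, adjusted p = 3.84e-06), and these differences differed (-1.63 ± 0.41, adjusted p = 0.0133).

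**Figure D3:**
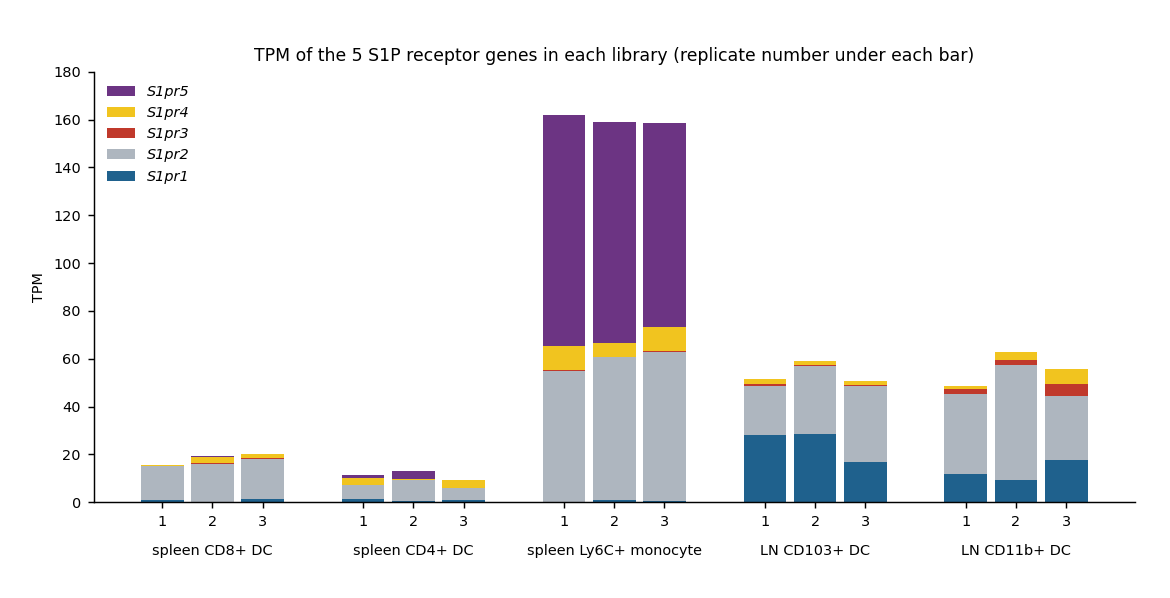
TPM of the 5 S1P receptor genes stacked in each of the 15 libraries, with the replicate number under each bar. S1pr5 fills 57.1% of the bar on average in monocytes, S1pr1 45.5% in LN CD103+ DCs, and S1pr2 84.6% in splenic CD8+ DCs.

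Across the comparisons, 6 of the 8 genes passed the threshold between LN CD103+ and splenic CD8+ DCs (4 higher and 2 lower in LN), where 45.6% of the 14456 genes tested did. Between LN CD11b+ and splenic CD4+ DCs 7 of 8 did (6 higher and 1 lower), against 33.1% of all genes. These counts hold Ch25h, and in DC2 S1pr3, whose difference was fixed by the filter. The members and the gene lists were chosen with earlier results of these data known. Their shares, here and below, are therefore not independent of that choice when set against all genes. Of the 6 genes that passed the filter without LN libraries, 5 were called in each lineage (3 higher and 2 lower in DC1, 4 higher and 1 lower in DC2). The median log2 fold change of the 8 was 1.16 and 2.83, against 0.00 and 0.05 over all genes. It did not depend on the exact fitted value of Ch25h. Ch25h and S1pr3 are among the 8, however, and their differences from spleen were fixed by the filter (S1pr3 at 1.34 in DC1 and 4.70 in DC2). The medians are therefore raised in part by the filter. Between splenic CD8+ and CD4+ DCs 3 of 8 passed (27.4% of all genes), and between LN CD103+ and LN CD11b+ DCs 3 of 8 (12.9%). Monocytes differed from splenic CD4+ DCs in 4 of 8, where 48.0% of all genes did, and from splenic CD8+ DCs in 2 of 8, where 42.1% did, which is near the share of all genes and below it. Over the orders of level given above, 8 of the 30 neighbouring pairs that could be tested differed. The pairs were set by the same means that were then tested, and no share over all genes ordered in this way was computed. Among the 8 is Ch25h in LN CD103+ over splenic CD8+ DCs, which was fixed by the filter. The neighbouring pairs used 4 further pairs of subtypes, in which 53.2% (monocytes and LN CD103+ DCs), 47.8% (monocytes and LN CD11b+ DCs), 47.0% (LN CD103+ and splenic CD4+ DCs) and 39.9% (LN CD11b+ and splenic CD8+ DCs) of all genes differed.

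Markers of other cells moved with the organ, and the S1P and oxysterol genes are also known from lymphocytes, endothelium and stroma. The 8 T cell markers summed to 98.0, 129 and 150.1 CPM in LN CD103+ DCs and to 80.1, 96.8 and 121 CPM in LN CD11b+ DCs, against at most 24.7 CPM in any splenic library. All 8 were read in both LN subtypes, led by Lck (49.2 and 39.4 CPM), with Cd3e at 7.63 and 3.30 CPM. Their sum was highest in the third LN CD103+ library, where S1pr1 was lowest of its group, and in the third LN CD11b+ library, where it was highest. The 9 stromal markers summed to 41.4 to 96.2 CPM in LN DCs and to at most 7.97 CPM in spleen. Ccl21a made up most of this sum (54.5 and 56.2 CPM). Pdpn was at 0 in LN CD11b+ DCs, and Pdgfra, Dcn and Pdpn were at 0 in all 3 splenic subtypes. The 9 B cell markers summed to 19.5 to 287 CPM in LN CD103+ DCs, of which the first library held the highest value, to 54.0 to 106 CPM in LN CD11b+ DCs and to 24.4 to 104 CPM in spleen. The 8 endothelial markers summed to 6.96 to 18 CPM in LN CD103+ DCs, 43.5 to 60.2 in LN CD11b+ DCs, 67.1 to 119 in splenic DCs and 11.8 to 21.9 in monocytes. They did not move as one. Pecam1 was at 73.1 and 83.3 CPM in splenic CD8+ and CD4+ DCs and at 8.44 and 9.77 CPM in LN CD103+ and LN CD11b+ DCs, while Kdr was highest in LN CD11b+ DCs (38.8 CPM against 11.6 in splenic CD4+ DCs), as was S1pr3. Tek and Lyve1 were read in LN CD11b+ DCs (1.81 and 0.398 CPM) and at 0 in splenic CD4+ DCs, and Emcn was at 0 in all 5 subtypes. Between the LN subtypes, all 8 macrophage markers were lower in CD103+ DCs (summed 188 to 235 against 659.9 to 967 CPM), and the 7 monocyte markers summed to 34.6 to 56.8 against 623 to 813 CPM. In spleen, 7 of the 8 macrophage markers were lower in CD8+ than in CD4+ DCs (summed 315 to 404 against 1207 to 1719 CPM). The monocyte markers summed to 151 to 230.0 CPM in splenic CD8+ and 523 to 721 CPM in splenic CD4+ DCs. Both lists moved with Gpr183 between the DC subtypes of each organ, and with S1pr3 in the LN. Their part in those differences was not tested. The part of these cells in the LN levels of Ch25h, S1pr1, S1pr3 and Gpr183 was not tested. The 7 neutrophil markers summed to 226 to 354 CPM in monocytes, where S1pr4 was highest, and to at most 4.64 CPM in any DC library. Their part in the monocyte level of S1pr4 was not tested either.

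**Figure D4:**
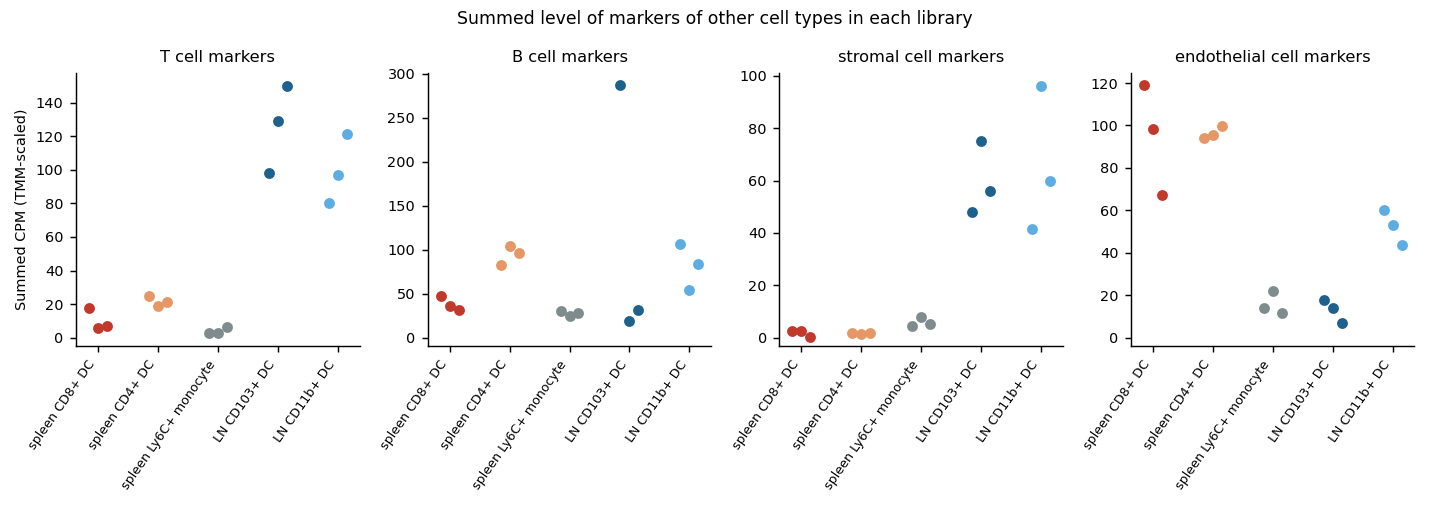
Summed TMM-scaled CPM of the markers of 4 other cell types in the 15 libraries, on linear axes that differ between panels. T cell markers (80.1 to 150.1 CPM) and stromal markers (41.4 to 96.2 CPM) are higher in every LN library than in any splenic library, B cell markers overlap apart from 1 LN CD103+ library at 287 CPM, and endothelial markers are highest in splenic DCs.

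Among further genes of oxysterol metabolism, sensing, sterol control and export, 5 of the 17 tested rose and 4 fell from splenic CD8+ to LN CD103+ DCs, and 8 rose and 2 fell from splenic CD4+ to LN CD11b+ DCs, with median log2 fold changes of 0.49 and 0.34. These are 52.9% and 58.8% of the list, against 45.6% and 33.1% of all genes. Between LN CD103+ and LN CD11b+ DCs 4 were lower in CD103+ DCs (23.5% of the list, against 12.9% of all genes), as were the macrophage and monocyte markers above, led by Nr1h3, which encodes the oxysterol-sensing nuclear receptor LXR alpha (7.43 against 65.8 CPM, adjusted p = 0.000155). In monocytes Cyp39a1, another oxysterol hydroxylase, was the gene of this list furthest above splenic DCs (12.3 CPM against 1.20 in CD4+ and 0.199 in CD8+ DCs, adjusted p = 0.00222 and 8.65e-05).

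Of the 21 tested genes of S1P synthesis, transport, breakdown and reception, which include S1pr2 and S1pr5 but not the 3 receptors above, 9 rose and 6 fell between splenic CD8+ and LN CD103+ DCs, and 8 rose and 4 fell between splenic CD4+ and LN CD11b+ DCs (medians 0.60 and 0.45), or 71.4% and 57.1% against 45.6% and 33.1% of all genes. Of the 21, 4 passed the filter with fewer than 3 splenic libraries. The kinase Sphk1, which makes S1P, was listed at 0 in splenic CD8+ DCs and was at least 49.6-fold higher in LN CD103+ DCs (5.96 CPM, adjusted p = 1.17e-05). In LN CD11b+ DCs it was at 4.19 CPM, against 0.169 CPM on 3 counts in splenic CD4+ DCs (ratio of pooled counts 27.6, counting interval 9.13 to 136, adjusted p = 0.000485). Spns2, which exports S1P, was 76.3 and 19.3 times higher (adjusted p = 2e-06 and 8.86e-05). Both genes passed the filter through LN libraries, with 0 and 2 splenic libraries over 1 CPM, so these differences were fixed by it. Sgpl1, the lyase that destroys S1P, rose too (2.99 and 1.59 times, adjusted p = 1.39e-05 and 0.0265). Acer3, an alkaline ceramidase, was 8.93 times lower in LN CD103+ than in splenic CD8+ DCs (adjusted p = 6.44e-09). S1pr5 ranged from 0.166 to 3.75 CPM over the splenic CD4+ libraries and, at 0 in LN CD11b+ DCs, was at least 11.2-fold lower there (adjusted p = 0.00812). Plpp3, a lipid phosphatase, was also lower there (0.439 against 2.72 CPM, adjusted p = 0.0242). Both genes passed the filter through splenic libraries alone, with 5 splenic and 0 LN libraries over 1 CPM each. For S1pr5 these include the monocytes. A lower level in the LN was thus tied to the filter for both. The phosphatase Plpp1 marked DC1 in both organs, at 30.5 times its level in splenic CD4+ DCs (adjusted p = 2.41e-08) and 7.20 times its level in LN CD11b+ DCs (adjusted p = 2.19e-05). Smaller DC1 differences were those of Asah2 (7.65 times, adjusted p = 0.0151) and Plpp2 (4.53 times, adjusted p = 0.00042) in spleen and Sphk2 (1.89 times, adjusted p = 0.0432) in the LN.

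Of the 19 genes of signalling and control, 4 rose and 5 fell in DC1 and 3 rose and 4 fell in DC2 (LN minus spleen, medians 0.12 and -0.01), or 47.4% and 36.8%, near the 45.6% and 33.1% of all genes. The transcription factor Klf2, which drives S1pr1 in lymphocytes, did not pass the threshold in either lineage (117 against 90.7 CPM in DC1, log2 fold change 0.37 ± 0.43, and 92.4 against 59.0 CPM in DC2, 0.65 ± 0.44). It was highest in monocytes at 551 CPM, where S1pr1 (0.685 CPM) was not told apart from its level in splenic DCs. Cd69, whose protein takes S1pr1 off the surface, rose in DC1 (46.0 against 13.3 CPM, adjusted p = 0.000227), and was at 62.7 against 37.2 CPM in DC2 (adjusted p = 0.0811). Rgs14, a brake on G protein signalling, was 8.68 times lower in LN CD103+ than in splenic CD8+ DCs (adjusted p = 7.82e-07), and Rgs1, of the same family, 5.62 times lower in splenic CD8+ than in CD4+ DCs (adjusted p = 8.59e-07).

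Of 11 other receptors that position leukocytes, 8 rose and 2 fell in DC1 and 7 rose and 1 fell in DC2 (medians 1.62 and 1.24), or 90.9% and 72.7% against 45.6% and 33.1% of all genes. The list was chosen with earlier results of these data known, so these shares are not independent of the choice. Among the 11, Gpr174 passed the filter through LN libraries (0 splenic and 5 LN libraries over 1 CPM), so its difference from spleen was fixed by the filter. Ccr7, which leads migrating DCs to the LN, was 44.3 times higher in LN CD103+ than in splenic CD8+ DCs (4028 against 91.0 CPM, adjusted p = 5.99e-10) and 13.9 times higher in LN CD11b+ than in splenic CD4+ DCs (2319 against 166 CPM, adjusted p = 4.28e-08), and is a marker of the migratory cells that the LN gate selects. Cxcr5, the receptor for the follicle chemokine, was 61.6 times higher in LN CD103+ than in splenic CD8+ DCs (27.6 against 0.449 CPM, adjusted p = 8.04e-07). In DC2 it was at 24.2 against 1.97 CPM. Of the markers tested, 5 of 8 B cell and 7 of 8 T cell markers were called higher in LN in DC1. In DC2, 1 of 8 B cell markers and 7 of 8 T cell markers were, and 1 T cell marker was lower. Their part in the level of Cxcr5 was not tested. Gpr34, a lysophosphatidylserine receptor, was 15.4 and 6.62 times lower in LN than in spleen in DC1 and DC2 (adjusted p = 1.7e-09 and 1.3e-07). Ccr6 followed DC2 in spleen (26.3 against 0.627 CPM, adjusted p = 1.56e-07), as did Cmklr1 at a low level (0.997 against 0.120 CPM, adjusted p = 0.0439). Ccr2 (125 against 9.99 CPM, adjusted p = 1.42e-07) and Cmklr1 (2.29 CPM against 0, adjusted p = 0.00207) were higher in LN CD11b+ than in LN CD103+ DCs. Monocytes had Ccr2 at 1368 CPM and S1pr5 at 88.3 CPM, against 16.9 and 1.69 CPM in splenic CD4+ DCs (adjusted p = 4.22e-11 and 4.26e-06). P2ry10, a receptor for lysophosphatidylserine, was at 1.61 CPM in monocytes against 131 and 80.8 CPM in splenic CD4+ and CD8+ DCs (adjusted p = 4.22e-11 and 8.03e-11).

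**Figure D5:**
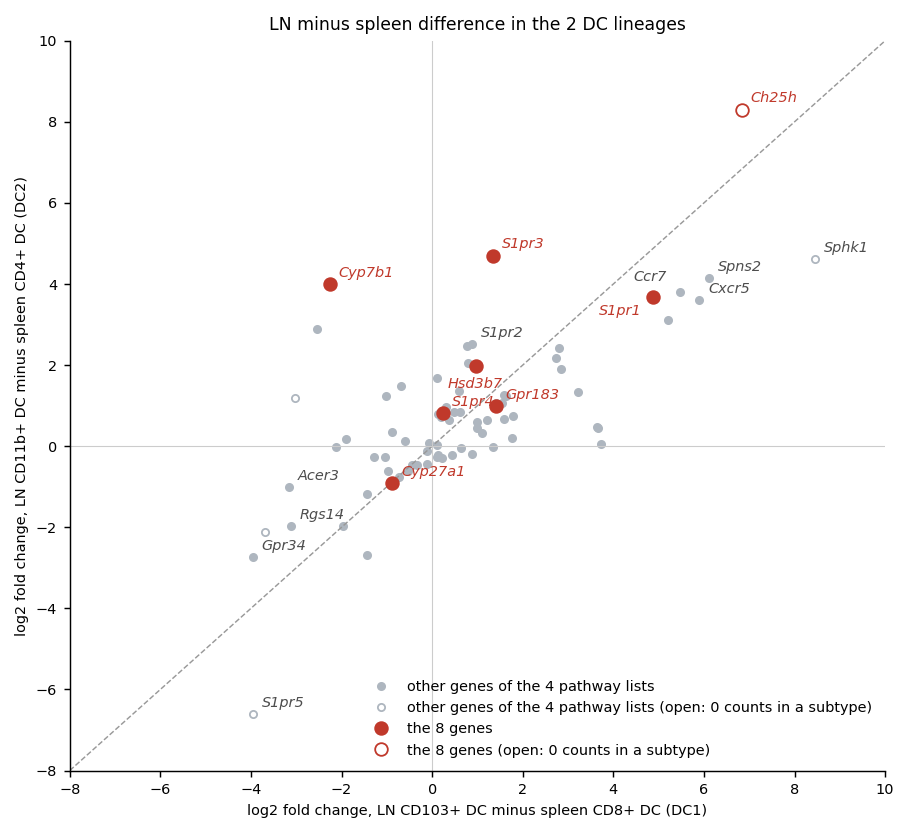
LN minus spleen log2 fold change in DC1 (horizontal axis) against DC2 (vertical axis) for the 8 genes and the other tested genes of the 4 pathway lists, with a dashed line where both are equal and open symbols where a subtype has 0 counts and the value depends on the prior count. S1pr1 (4.87 and 3.69), Gpr183 (1.41 and 0.99) and Cyp27a1 (-0.88 and -0.92) lie near the line, and Cyp7b1 (-2.26 and 3.99) lies furthest from it among the 8 genes.

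Of the 8 genes, 4 reached 10 CPM in a subtype and were set against every other tested gene by the correlation of log2 CPM over the 15 libraries, which are 5 subtypes of 3 libraries and so not independent points. The genes nearest to Gpr183 were Rnf186 (Pearson r = 0.964) and Gm26551 (0.964). Those nearest to Cyp27a1 were Slc25a45 (0.951) and Wasf2 (0.946), those nearest to Hsd3b7 were Derl2 (0.958) and Actg1 (0.957), and those nearest to S1pr1 were Enox2 (0.982) and D3Ertd254e (0.971). None of these is among the genes of the oxysterol and S1P lists. The values describe likeness of level over these subtypes and carry no test.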

How the data were processed

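Gene expression was measured by RNA-seq in 15 libraries from 5 subtypes, grouped by sample title. Per the study's methods, the authors dropped reads under 30 nt, aligned the rest to mm10 (STAR 2.4.0j) and deposited raw counts per Ensembl gene from featureCounts (Subread 1.5.2). Strand was not used, and reads shared by overlapping genes entered each of their counts. The authors also deposited TPM, derived from those counts and exon lengths, which recomputed values matched to 9.6e-10. Monocyte libraries are sums of 2 runs.

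A gene had to exceed 1 CPM in 3 or more libraries, which left 14456. One edgeR 4.0.16 quasi-likelihood model (R 4.3.3) with TMM factors (0.883 to 1.10) and a mean per subtype was fitted to all 15 libraries, and p values were adjusted by Benjamini-Hochberg over all genes in each comparison (threshold 0.05). CPM are TMM-scaled, fitted fold changes depend on a prior count where a group holds few counts, and log2 CPM used a prior count of 2. Ratios are of group means or, where a group held 3 counts or fewer, of pooled counts per pooled library size. Intervals are 95%, and counting intervals and the floor of 3 counts cover counting error only. The model was tested on simulated data. Each replicate is a pool of 5 mice, so that p values measure the spread between pools.

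The members and the gene lists were chosen with earlier results of these data known. Besides the 8 genes, Klf2, Cd69, Ccr7, S1pr2, S1pr5, Sphk1 and Sgpl1 were always named. In each comparison of 2 subtypes up to 3 pathway genes that rose and 3 that fell by the most, of those called, were named, and for members of at least 10 CPM the 2 genes of highest correlation. Setd1a, Gm26902, Ubac2, Abcg1, Abca1, Mylip, Lpcat3, Srebf1 and single markers were picked after their values were seen. Alternatives were RLE factors, DESeq2 1.42.0, no filter (23169 genes), filterByExpr (13888 genes), limma 3.58.1 on log2(TPM + 1) and log2(TPM + 0.1), a fit of only the subtypes compared, the first monocyte run only, the replicate number as a term, each library left out, and, added after the data were seen, subtraction of the overlapping gene.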

Additional observations from a re-analysis of the deposited data

Results flagged for a closer look

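The LN minus spleen difference of Cyp7b1 differed between the lineages, with a log2 difference of -6.24 ± 1.26 for DC1 minus DC2 (adjusted p = 0.00316 in edgeR's quasi-likelihood test of the interaction). Cyp7b1 was lower in LN CD103+ than in splenic CD8+ DCs (1.75 against 8.50 CPM) and higher in LN CD11b+ than in splenic CD4+ DCs (1.86 against 0.114 CPM). The value rests on 2 counts in the splenic CD4+ libraries and ran from -9.08 to -3.27 over 25 alternatives, all past the threshold.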

How the results depend on the processing

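Over 25 alternatives, 1253 of the 1294 recomputed differences of single genes kept their side of the threshold, with their direction wherever they had passed it, 17 were no longer past the threshold, 23 newly passed it and 1 reversed. The reversal was Gpr183 in monocytes minus splenic CD8+ DCs (-0.07), which ran from -0.37 to 0.54 with a library left out and was 0.54 without the first splenic CD8+ library. The number of the 8 genes whose organ difference differed between lineages (1) was 2 with limma on log2(TPM + 1), where S1pr3 joined Cyp7b1, 2 with the overlapping gene subtracted, where Hsd3b7 did (an alternative chosen after seeing the data), and 1 to 3 with a library left out. Leaving out the first splenic CD8+ library gave 3 (Cyp7b1, Gpr183 and S1pr3) and leaving out the third splenic CD4+ library gave 2 (Cyp7b1 and Hsd3b7). The cause was not tested. For the other counts, leaving out a library gave 5 to 6 in DC1 between organs, 7 in DC2, 3 to 4 between splenic DCs, 2 to 4 between LN DCs, 4 to 5 and 2 to 3 for monocytes against CD4+ and CD8+ DCs, and 6 to 9 neighbouring levels that differed. A fit with the replicate block gave 6 and 7 genes between organs in DC1 and DC2, 1 for their difference, 4 between splenic DCs and 3 between LN DCs, where Cyp27a1 joined (0.60 and 0.68) and S1pr3 was lost in the LN (-2.09), 4 and 3 for monocytes and 10 neighbours. Whether same-numbered libraries are paired was not settled, and the main model did not pair them. The correlation of their deviations lay between -0.0353 and 0.375 (median 0.0774, 30 pairs). For libraries with other numbers it lay between -0.293 and 0.0442 (median -0.027, 60 pairs). With the replicate block more of all genes were called in each comparison above. They numbered 7063 against 6594 between organs in DC1 and 5343 against 4780 in DC2. At these depths genes under about 1 CPM, such as S1pr3 in spleen, have few counts and wide intervals.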

Other observations

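Genes that oxysterol-sensing receptors are known to induce were looked at after their values were seen, and they did not move together. Abcg1, a cholesterol exporter like Abca1, was at 683 ± 126 CPM in LN CD103+ and 479 ± 106 in LN CD11b+ DCs, against 95.4 ± 9.49 CPM in the CD8+ and 128 ± 33.6 CPM in the CD4+ DCs of the spleen and 81.8 ± 4.29 CPM in monocytes. The LN minus spleen difference passed the threshold in DC1 (log2 fold change 2.84 ± 0.23, adjusted p = 1.09e-08) and in DC2 (1.91 ± 0.22, adjusted p = 2.27e-06). Abca1 was higher in LN CD11b+ (40.6 ± 11.4 CPM) than in splenic CD4+ DCs (9.88 ± 4.80 CPM, adjusted p = 0.0379) and than in LN CD103+ DCs (6.85 ± 7.29 CPM, adjusted p = 0.0275). In DC1 its organ difference was 0.79 ± 0.78 (adjusted p = 0.429). Mylip, a ligase that lowers the LDL receptor, was at 35.8 against 11.9 CPM in DC1 (LN against spleen, adjusted p = 0.000308) and at 22.9 against 9.48 CPM in DC2 (adjusted p = 0.00385). Lpcat3 was lower in the LN in DC1 (15.6 against 28.6 CPM, adjusted p = 0.00313) and at 25.1 against 19.8 CPM in DC2 (adjusted p = 0.259). Srebf1 did not pass the threshold (log2 fold change 0.10 in DC1 and -0.26 in DC2).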
